A study of Mus musculus with 9 samples.

Results

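The sarcomeric myosin heavy chains are the motor proteins of striated muscle, and 8 of their genes (Myh1, Myh2, Myh3, Myh4, Myh6, Myh7, Myh7b and Myh8) were followed by name in a deposited table of sham quadriceps against sham heart. The table holds 35745 RefSeq transcripts with 24537 gene names, and the 8 genes took up 9 of its rows, because Myh6 is listed with 2 transcripts. All 9 rows passed the filter on low counts, which asked for over 5 counts in 2 or more libraries, and entered the test. The study asked which genes of mouse skeletal muscle respond to heart failure with wasting, and the comparison with heart served to single out genes enriched in skeletal muscle. Each tissue was represented by 3 libraries from C57Bl6 mice (C57Bl/6J in the study's text, male C57Bl/6JCrl in its methods). By the sample records they had sham surgery at the age of 8 weeks, and the study's methods give a range of ages that starts there. They were sampled 12 weeks later, with no constriction of the aorta and no transgene or agent. A second table, of transverse aortic constriction against sham quadriceps, lists 587 genes and none of the 8, so that comparison was not analysed here.

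A pair of heavy chains forms the motor of each myosin molecule, and the isoform sets how fast the motor hydrolyses ATP and the fibre shortens. In adult limb muscle of rodents, Myh4 encodes the fast IIb chain, Myh1 the fast IIx chain, Myh2 the fast IIa chain and Myh7 the slow chain, which the heart also uses as beta myosin. Myh6 encodes the alpha chain, the main isoform of the adult rodent ventricle, Myh3 and Myh8 encode the embryonic and the perinatal chain of developing muscle, and Myh7b encodes an ancient slow-type chain of low abundance.

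The genes fall into separate places of the genome (GENCODE vM21, build GRCm38). Myh3, Myh2, Myh1, Myh4 and Myh8 lie in that order on the plus strand of chromosome 11, within 230.335 kb. Myh3 spans chr11:67078300-67102291, Myh2 chr11:67171027-67197517, Myh1 chr11:67200052-67224575, Myh4 chr11:67238029-67260446 and Myh8 chr11:67277124-67308634. Myh6 (chr14:54941921-54966927) and Myh7 (chr14:54970684-54994626) are neighbours on the minus strand, 3.756 kb apart, and Myh7b (chr2:155611212-155634307) stands alone on the plus strand. The 8 transcripts are of similar build, with 39 to 42 exons.

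Myh6, Myh7 and Myh7b each carry a microRNA gene in an intron, on the host's own strand. Mir208a lies in intron 29 of Myh6, Mir208b in intron 31 of Myh7 and Mir499 in intron 19 of Myh7b. These microRNAs are known as a family that acts back on myosin gene expression. Their mature sequences (RefSeq, GRCm38.p6) are shown because they set these 3 genes apart from the chromosome 11 genes, with the seed, bases 2 to 8, in capitals.
mmu-miR-208a-3p: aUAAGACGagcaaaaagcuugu
mmu-miR-208b-3p: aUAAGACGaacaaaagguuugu
mmu-miR-499-5p: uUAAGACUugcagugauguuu
The first and second share their seed and 19 of 22 bases. The seed of the third differs from both by G8U, counted from the 5′ end, the base of miR-208a or miR-208b first.

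All 8 genes differed between the tissues. Myh4, Myh1, Myh2, Myh3 and Myh8, the 5 genes of chromosome 11, were higher in quadriceps, and Myh6, Myh7 and Myh7b, the 3 hosts of a microRNA, were higher in heart. A transcript was called at a Benjamini-Hochberg adjusted p under 0.05 in edgeR's quasi-likelihood test over 24280 transcripts. Of all transcripts tested, 32.2% were called higher in quadriceps and 34.4% lower, so that a call alone was common. With a difference of over 2 on the log2 scale in addition, the shares were 6.99% higher and 8.53% lower, and all 8 genes were also called by this stricter rule. The median log2 fold change over all transcripts tested was -0.06. In none of the 8 did the CPM values (counts scaled to library size, here with TMM factors) of the tissues overlap. The share of all transcripts tested without such overlap was not counted, so this describes the 8 genes and does not set them apart.

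The total count was 33102826 to 38382751 per heart library and 23383452 to 32989108 per quadriceps library. The 8 genes took 2.45% to 2.67% of the counts in heart and 2.16% to 3.53% in quadriceps. Summed levels of markers, here and below, are CPM over library totals without TMM factors, unlike the other CPM values. The summed level of 5 ventricular markers was 23566 to 23856 CPM in heart and 201 to 241 CPM in quadriceps. That of 6 skeletal fibre markers was 1498 to 1751 CPM in heart and 38885 to 46587 CPM in quadriceps, so the markers bore out the labelled tissues. The heart libraries differed in 4 atrial markers, whose summed level was 850 CPM in library 1, 547 CPM in library 2 and 245 CPM in library 3. In quadriceps, 2 adipocyte markers ranged from 4.40 to 39.9 CPM and were highest in library 1. Which part of the heart was taken is not given in the sources used here. Whether libraries of the same number came from the same mouse is likewise not given, and the p-values measure the spread between these libraries. In whole tissue, fewer cells of a type and less RNA per cell cannot be told apart.

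**Figure D1:**
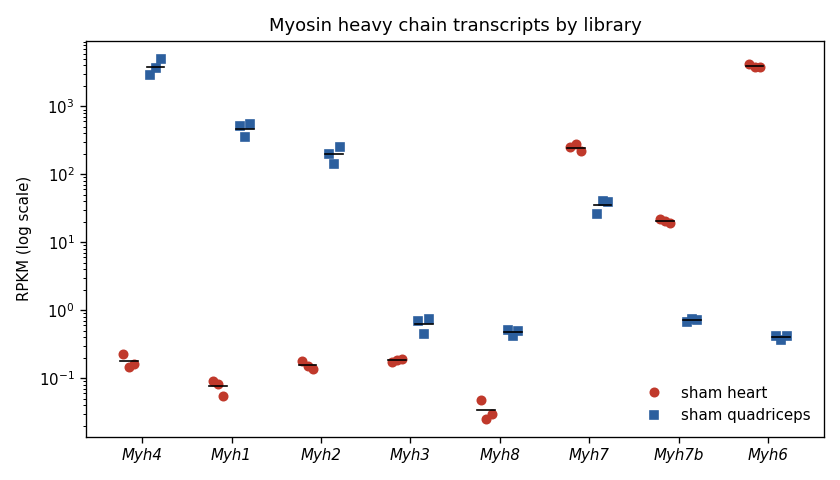
RPKM (counts scaled by transcript length and library total, log axis) of the 8 genes in each library, with circles for the 3 sham heart libraries, squares for the 3 sham quadriceps libraries and a line for each mean. Myh4 averaged 3861 RPKM in quadriceps and Myh6 3967 RPKM in heart. The 2 sets of points do not overlap for any of the 8 genes, and the share of all transcripts without overlap was not counted.

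Myh4 was the most abundant heavy chain of the quadriceps. Its counts were 559634, 726121 and 708200 in the 3 quadriceps libraries and 50, 34 and 32 in the 3 heart libraries. Every quadriceps library thus lay far above every heart library, although the library with the fewest Myh4 counts was not the shallowest. The log2 fold change was 15.16 (SE 0.45, edgeR quasi-likelihood test, adjusted p = 7.16e-09). In level per length, Myh4 reached 2859, 3672 and 5052 RPKM in quadriceps and ranked 9th to 12th among all 24537 gene names.

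Myh1 and Myh2, the IIx and IIa chains, followed. Myh1 had 99665, 69630 and 76186 counts in quadriceps and 20, 19 and 11 counts in heart. Its log2 fold change was 13.31 (SE 0.30, edgeR, adjusted p = 2.22e-09). Myh2 had 39910, 28266 and 35603 counts in quadriceps and 40, 35 and 27 counts in heart, and it was 11.06 higher on the log2 scale (SE 0.30, edgeR, adjusted p = 4.41e-09). Both genes were lowest in quadriceps library 2, in counts as in RPKM, and neither overlapped with heart. On the RPKM scale the level of Myh2 in quadriceps was 39.6 to 46.2 per 100 of Myh1, a narrow range beside that of Myh1 per 100 of Myh4, which ran from 9.62 to 17.9.

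The promoters of the chromosome 11 genes were searched because the 5 genes were all called higher in quadriceps. Upstream windows of 150 bases before the RefSeq start were available for all 8 genes, with 2 starts for Myh7, and were searched on both strands for TATAAA, for the E-box CANNTG, which myogenic factors bind, for the MCAT box CATTCC, for the GATA motif GATAAG, for a MEF2-like box (CTA, any 4 bases, TAG) and for a CArG-like box (CC, any 6 bases, GG). The TATA box was present in Myh1, Myh3, Myh4 and Myh8 and in 8.08% of 27020 promoter windows of the mouse genome. It began 32, 29 and 31 bases before the start in Myh1, Myh3 and Myh4, while in Myh8 it lay on the opposite strand, 96 to 91 bases before the start. Myh2 and the 3 genes that were higher in heart had no TATAAA in this window. The windows of Myh4, Myh3 and Myh2 are shown, 2 with and 1 without this motif, with capitals for TATAAA and for CANNTG.
Myh4, chr11:67237662-67237811, plus strand: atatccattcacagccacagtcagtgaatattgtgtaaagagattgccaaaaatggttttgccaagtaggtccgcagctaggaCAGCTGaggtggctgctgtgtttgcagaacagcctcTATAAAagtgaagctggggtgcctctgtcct
Myh3, chr11:67078150-67078299, plus strand: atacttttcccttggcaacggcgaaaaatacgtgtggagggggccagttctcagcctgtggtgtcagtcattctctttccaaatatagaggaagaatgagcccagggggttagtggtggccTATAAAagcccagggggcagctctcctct
Myh2, chr11:67170877-67171026, plus strand: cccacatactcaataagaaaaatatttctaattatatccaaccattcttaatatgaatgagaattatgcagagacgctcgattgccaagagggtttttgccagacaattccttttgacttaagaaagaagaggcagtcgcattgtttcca
The sequences and starts are RefSeq's on GRCm38.p6. An E-box was found in the windows of 5 genes, Myh4, Myh6, Myh7, Myh7b and Myh8, against 47.4% of all windows, and a CArG-like match in 4, Myh4, Myh6, Myh7 and Myh7b, against 53.2%. CATTCC was found in Myh1 alone, against 7.64% of all windows. The MEF2-like motif and GATAAG were found in 0 of the 8, against 1.83% and 3.76%. A match of letters is a description of the window, and Myh4, with a TATAAA, and Myh2, with none, were both among the 3 leading chains of the quadriceps.

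The developmental chains were low in both tissues. Myh3, the embryonic chain, had 137, 87 and 105 counts in quadriceps and 38, 42 and 38 in heart. Its log2 fold change was 2.52 (SE 0.21, edgeR, adjusted p = 6.06e-06). Myh8, the perinatal chain, had 102, 85 and 71 counts in quadriceps and 11, 6 and 6 in heart, and its log2 fold change was 4.50 (SE 0.25, edgeR, adjusted p = 4.03e-07). Both were higher in every quadriceps library than in any heart library. How reads that match several chains were treated is not given, so these low counts are uncertain beside those of Myh4. The level of Myh3 in quadriceps was 0.634 ± 0.167 RPKM (SD, n = 3) and that of Myh8 0.477 ± 0.0481 RPKM (SD, n = 3). The 3 heart libraries together held 23 counts of Myh8, with an exact 95% Poisson interval of 14.6 to 34.5, which covers counting error only. The 4 satellite cell and new fibre markers measured had a summed level of 8.05 to 12.9 CPM in quadriceps and at most 0.0782 CPM in heart, where Pax7 and Myf5 were at 0 in every library. Their part in the Myh3 and Myh8 values was not tested.

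Myh6 was the most abundant heavy chain of the heart. Its transcript NM_010856 had 927327, 883550 and 763063 counts in heart, against 82, 72 and 59 in quadriceps. The log2 fold change was -12.52 (SE 0.24, edgeR, adjusted p = 1.78e-09). The heart libraries were close to each other at 4189, 3853 and 3859 RPKM, and Myh6 ranked 7th or 8th among all gene names. The other row, NM_001164171, held 933029, 889236 and 768767 counts in heart, against the same 82, 72 and 59 in quadriceps. The 2 rows therefore largely count the same reads, and NM_010856 alone stands for Myh6 in the following values.

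Myh7 was the one member with at least 5103 counts in every library of both tissues. It had 55507, 63546 and 43793 counts in heart, against 5103, 8133 and 5585 in quadriceps. The heart libraries lay above all quadriceps libraries, with a log2 fold change of -2.03 (SE 0.22, edgeR, adjusted p = 3.14e-05). That size is close to the limit of 2, and without heart library 2 or quadriceps library 1 the difference fell short of it (the lowest in size was -1.78), while the adjusted p stayed under 0.05. Myh7b had 4927, 4813 and 3933 counts in heart, against 134, 152 and 103 in quadriceps, and its log2 fold change was -4.09 (SE 0.13, edgeR, adjusted p = 1.13e-08). Its level in heart was 20.7 ± 1.16 RPKM (SD, n = 3) and in quadriceps 0.718 ± 0.0416 RPKM (SD, n = 3). Myh7b stood at 7.48 to 8.87 per 100 of Myh7 in heart and at 1.82 to 2.59 per 100 in quadriceps, both on the RPKM scale.

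**Figure D2:**
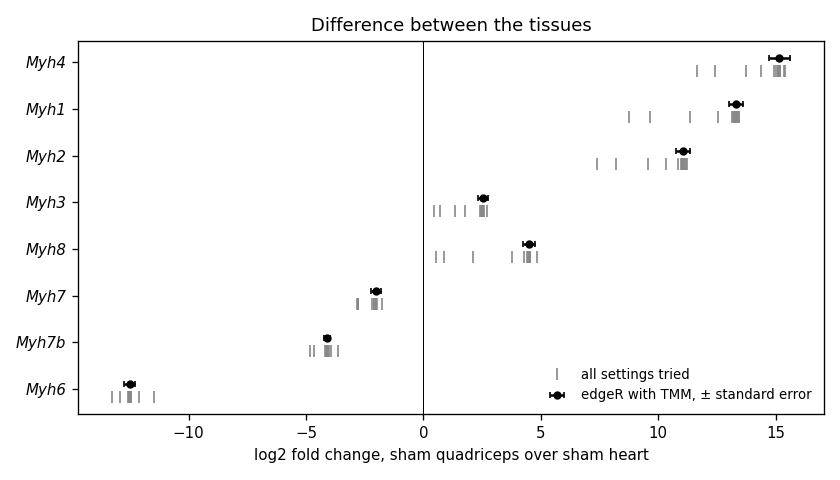
Log2 fold change of each gene, sham quadriceps over sham heart, from edgeR with TMM scaling (black points, bars show the standard error) and under every setting tried (grey ticks). Values run from 15.16 for Myh4 to -12.52 for Myh6, and for each gene all ticks lie on the side of 0 of its black point.

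Ordered by RPKM, the heart ran from Myh6 (3967 ± 192, SD, n = 3) through Myh7 (248 ± 27.7) and Myh7b (20.7 ± 1.16) to 5 genes with means of 0.183 or less. Among these, Myh3 and Myh4 overlapped, as did Myh4 and Myh2, while Myh1 lay below Myh2 and above Myh8 without overlap. The quadriceps ran from Myh4 (3861 ± 1109) through Myh1 (470 ± 102), Myh2 (199 ± 55.2) and Myh7 (35.6 ± 8.32), none of which overlapped with its neighbour. The last 4, Myh7b, Myh3, Myh8 and Myh6, had means of 0.718, 0.634, 0.477 and 0.403 RPKM, and each overlapped with the next. The lowest heart gene, Myh8, had a mean of 0.0346 RPKM.

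The make-up of the heavy chain RNA was expressed as each gene's share of the summed RPKM of the 8. In heart, Myh6 took 93.6% ± 0.686 (SD, n = 3), Myh7 5.86% ± 0.678 and Myh7b 0.487% ± 0.0103. In quadriceps, Myh4 took 84.1% ± 4.15, Myh1 10.6% ± 3.13, Myh2 4.42% ± 1.13 and Myh7 0.790% ± 0.161. For each of the 8 genes the shares of the tissues did not overlap, and the two-sided exact permutation test gave p = 0.1 for each, the smallest that 3 against 3 libraries allow. Myh6 and Myh7 together made up 99.5% of the heart sum in every library, and Myh4, Myh1 and Myh2 together 99.0% to 99.3% of the quadriceps sum. Myh3 and Myh8 together took 0.0206% to 0.0338% in quadriceps and 0.00495% to 0.00543% in heart.

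The 3 quadriceps libraries differed more in make-up than the heart libraries did in Myh6. The Myh4 share was 79.4%, 87.2% and 85.8% in libraries 1, 2 and 3. Library 1, the lowest in Myh4, was the highest in Myh1 (14.2%, against 8.39% and 9.25%) and in Myh2 (5.62%, against 3.37% and 4.28%). The Myh7 share did not follow and was highest in library 2 (0.974%, against 0.722% and 0.674%). Library 1 was also the one with the highest level of the adipocyte markers, and the part of that difference in the shares was not tested.

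**Figure D3:**
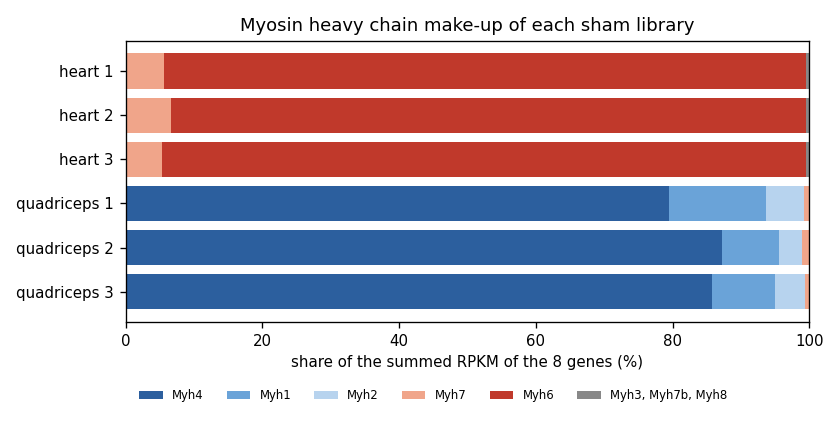
Share of each gene in the summed RPKM of the 8 genes (%), 1 bar per library, starting at 0. Myh6 fills 92.9% to 94.1% of the heart bars and Myh4 79.4% to 87.2% of the quadriceps bars, and Myh3, Myh7b and Myh8 are drawn together in grey.

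The 8 transcripts are alike in sequence, and the treatment of reads that match several of them is not given in the sources used here. The libraries were read for 50 cycles, and 50-base stretches of the GENCODE transcripts were therefore compared. Of the stretches of Myh6, 23.0% occurred unchanged in another of the 8, and all of these occurred in Myh7. The share was 26.7% in Myh1 and in Myh2, 19.9% in Myh8, 18.6% in Myh4, 22.6% in Myh7, 3.66% in Myh3 and 0% in Myh7b. Between Myh4 and Myh6, the leading chains of the 2 tissues, 0.117% of the stretches of either were shared.

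The low counts of the minor chains can be set against these shares. In quadriceps, Myh6 had 0.885 to 1.61 counts per 100 of Myh7, whereas 22.6% of the Myh7 stretches occur in Myh6. Myh8 had 0.0100 to 0.0182 counts per 100 of Myh4, whereas 9.52% of the Myh4 stretches occur in Myh8, and Myh3 had 0.0120 to 0.0245 per 100 of Myh4, against 0.922%. Reads common to 2 chains were thus not counted in full on both. Whether they were dropped or given to 1 of the genes was not tested. The Myh4 counts in heart were 0.00385 to 0.00539 per 100 of Myh6, and values as low as these are uncertain for this reason. The same holds for the Myh6, Myh3 and Myh8 counts in quadriceps. Allowing up to 2 mismatches, 23.8% of the Myh4 stretches occur in Myh8 and 6.70% in Myh3. The part of misassigned Myh4 reads in the Myh8 and Myh3 counts was not tested. With each RPKM divided by the share of stretches that no other of the 8 holds, Myh4 took 82.7% ± 4.45 (SD, n = 3) of the quadriceps sum and Myh1 11.6% ± 3.35, and Myh6 took 93.8% ± 0.682 of the heart sum.

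**Figure D4:**
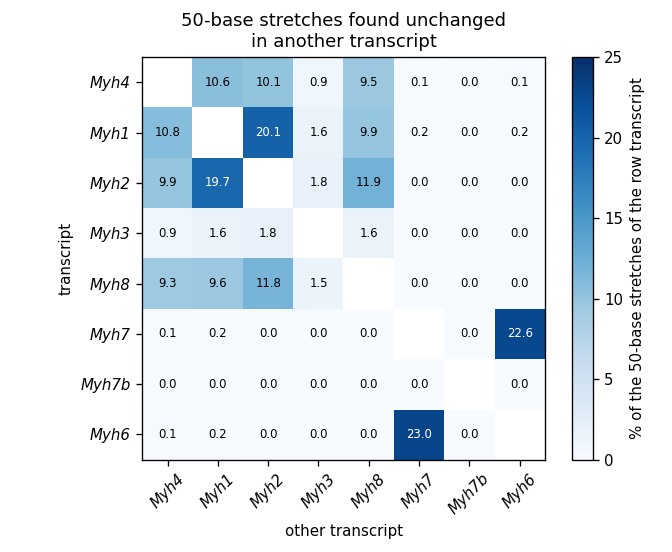
Share of the 50-base stretches of each transcript (rows, %) that occur unchanged in each other transcript (columns), with darker blue for a larger share. Myh6 and Myh7 share 23.0% and 22.6% of theirs, Myh1 and Myh2 20.1% and 19.7%, and Myh7b shares none with the other genes.

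Several RNAs lie in or beside these genes. Mhrt, a long noncoding RNA known as the myosin heavy chain associated RNA transcript, lies on the strand opposite to Myh7 at chr14:54968678-54974349, and 463 of its 1214 exon bases lie over Myh7 exons. In heart, 11613, 10382 and 8644 counts fell on Mhrt, against 172, 295 and 186 in quadriceps, with a log2 fold change of -4.49 (SE 0.23, edgeR, adjusted p = 2.71e-07). The 2 tissues did not overlap. For every 100 counts of Myh7, Mhrt had 16.3 to 20.9 counts in heart and 3.33 to 3.63 in quadriceps (two-sided exact permutation test, p = 0.1, the smallest possible with 3 against 3). These count ratios do not allow for length, since the Mhrt row is 823 bases long and the Myh7 row 6011. On the RPKM scale, Mhrt stood at 119 to 153 per 100 of Myh7 in heart and at 24.3 to 26.5 in quadriceps. The strand setting of the counting is not given in the sources used here, so the reads of Myh7 and Mhrt over the shared exon bases cannot be told apart.

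2310065F04Rik, known as linc-Myh, lies 50947 bases from Myh2 on the opposite strand of the chromosome 11 locus (chr11:67112461-67120080). It had 0 counts in every heart library and 4237, 3371 and 2476 counts in quadriceps. That is at least 2268-fold higher in quadriceps, with 3 counts per heart library as the floor. Of the microRNA rows, Mir208b had 19, 15 and 9 counts in heart, against 1, 0 and 0 in quadriceps (log2 fold change -4.09, SE 0.83, edgeR, adjusted p = 0.00187). Mir208a had 8, 5 and 4 counts in heart and 0 in each quadriceps library, and Mir499 had 0 in all 6 libraries. Neither of these passed the filter on low counts. The libraries were made from purified mRNA, so these rows count fragments over the hairpins and are no measure of the mature microRNAs.

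Beyond the 8 genes, the table lists 6 other myosin heavy chain genes. Of the 5 tested, 4 were lower in quadriceps and none was higher, with a median log2 fold change of -1.08. Over all transcripts tested, 34.4% were lower and 32.2% higher. Myh9 (log2 fold change -1.57, SE 0.13), Myh10 (-1.08, SE 0.30) and Myh14 (-0.95, SE 0.16) encode nonmuscle chains. Markers of some other cell types were lower in quadriceps too, namely those of endothelium, fibroblasts, leukocytes and red blood cells. Other lists went the other way or were split. Called higher were 2 of 2 adipocyte markers, 4 of 4 satellite cell and new fibre markers tested, and 1 of 2 Schwann cell markers. Of 4 smooth muscle markers, 1 was higher, 1 was lower and 2 were not called. The part of these cell types in the values of Myh9, Myh10 and Myh14 was not tested. The summed level of 3 endothelial markers, all 3 called lower, was 489 to 533 CPM in heart and 81.3 to 98.1 CPM in quadriceps. For 3 fibroblast markers, 2 of them called lower, it was 490 to 546 CPM and 210 to 325 CPM, and for 3 leukocyte markers, 2 of them called lower, 26.9 to 28.9 CPM and 5.09 to 11.4 CPM. These sums use library totals, whereas the calls use TMM, with factors of 1.29 to 1.31 in heart and 0.725 to 0.833 in quadriceps. On the scale of the calls the gaps are narrower. The fibroblast marker Dcn had a log2 fold change of -0.18 (not called) with TMM and -0.92 with library totals. Myh13, a superfast chain known from extraocular muscle, lies 13024 bases beyond Myh8 in the same cluster, on the same strand. It had 1120, 1046 and 990 counts in heart, against 176, 165 and 168 in quadriceps, with a log2 fold change of -1.57 (SE 0.15, edgeR, adjusted p = 1.31e-05). Its direction was thus opposite to that of the 5 genes beside it. Myh11, the smooth muscle chain, did not pass the test (log2 fold change 0.05, SE 0.18), while with library totals in place of TMM it was called lower. Myh15, at 0 or 1 counts in heart and at most 7 in quadriceps, was not tested.

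The genes whose pattern was most like that of each member were found by the distance between their centred log2 CPM values over the 6 libraries. Nearest to Myh4 were Actn3, the alpha-actinin of fast fibres, and Mylpf, the fast regulatory light chain. Nearest to Myh1 were Ampd1, the muscle AMP deaminase, and Ryr1, the calcium release channel of skeletal muscle. The nearest to Myh2 were linc-Myh and Myoz3, a Z-disc protein of fast fibres. Myh6 was followed by Tnni3, cardiac troponin I, and Ryr2, the cardiac calcium release channel. The pairs were Adamts16 and Acss3 for Myh3, Prkcq and Ramp1 for Myh8, Hic1 and Usp20 for Myh7, and Adra1a and Rap1gap2 for Myh7b. The distances to the first of each pair ran from 0.138 for Myh3 to 1.09 for Myh6. All members share the 6 libraries and their split into 2 tissues, and the likeness is a description only.

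Of 17 partners in the thick filament, 10 were higher in quadriceps, 6 were lower and 1 did not pass the test. Their median log2 fold change was 0.78, beside -0.06 over all transcripts tested, of which 32.2% were higher and 34.4% lower. Mylpf, the light chain that binds the fast heavy chains, was 15.23 higher on the log2 scale (SE 0.26), with 7, 7 and 8 counts in heart. Mybpc1, the slow form of myosin binding protein C, was 14.37 higher (SE 0.34), and Mybpc3, the cardiac form, had a log2 fold change of -13.80 (SE 0.27). Myl7, the atrial light chain, had a log2 fold change of -9.76 (SE 2.83) and differed widely between the heart libraries, with 2075, 164 and 3 counts. Its call was lost without quadriceps library 1 (edgeR, adjusted p = 0.0697). Myom1, an M-band protein, did not pass (log2 fold change 0.21, SE 0.14). With library totals in place of TMM, 7 of the 17 were higher, 7 lower and 3 not called, beside 3241 higher and 15203 lower of all 24280 transcripts. Across heart libraries 1, 2 and 3 the atrial markers fell from 850 to 245 CPM, scaled by library totals. In the same order, Myh7b stood at 103, 95.7 and 91.6 CPM, scaled with TMM like the values that follow. Myh6 was also highest in library 1, with 19469, 17562 and 17770 CPM, while Myh7 was highest in library 2, with 1165, 1263 and 1020 CPM. The part of the atrial markers in these values was not tested, and without heart library 1 all 8 genes kept their direction and their call.

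Of 15 genes for the folding and turnover of myosin, 8 were higher in quadriceps, 3 were lower and 4 did not pass, with a median of 0.50. Of all transcripts tested, 32.2% were higher and 34.4% lower. Hspa8, a constitutive chaperone of the Hsp70 family, was 3.80 higher on the log2 scale (SE 0.18). Unc45b, the myosin chaperone of striated muscle, was 1.24 higher (SE 0.17) and Trim63, the ubiquitin ligase MuRF1, 1.10 higher (SE 0.16). Hsp90b1, the endoplasmic reticulum member of the Hsp90 family, had a log2 fold change of -1.30 (SE 0.21). Hsp90ab1, Trim55, Nploc4 and Ube4b did not pass, with log2 fold changes of -0.20, -0.27, 0.26 and -0.15. With library totals in place of TMM, 4 of the 15 were higher, 7 lower and 4 not called, and the call of Trim63 was lost. That setting made 3241 of all 24280 transcripts higher and 15203 lower.

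Of 35 regulators of the myosin heavy chain genes, 20 were higher in quadriceps, 10 were lower and 5 did not pass, with a median of 0.68. The shares over all transcripts tested were 32.2% higher and 34.4% lower. Myf6, a myogenic factor of mature fibres, had 0 counts in every heart library and 1861, 2157 and 1234 in quadriceps, at least 1186-fold higher with 3 counts per heart library as the floor. Myod1, which directs cells to the muscle lineage, had 0, 2 and 0 counts in heart, against 180, 305 and 209 in quadriceps (log2 fold change 9.19, SE 0.52). Gata4 and Nkx2-5, transcription factors of the heart, had 0 counts in every quadriceps library and were at least 320-fold and at least 104-fold lower there. The 5 that did not pass were Mef2a (0.18), Nfix (0.20), Purb (0.19), Srf (-0.22) and Rcan1 (-0.22), given as log2 fold changes. The split depended on the scaling, since with library totals 14 of the 35 were higher, 17 lower and 4 not called. The split over all 24280 transcripts moved as well, to 3241 higher and 15203 lower.

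**Figure D5:**
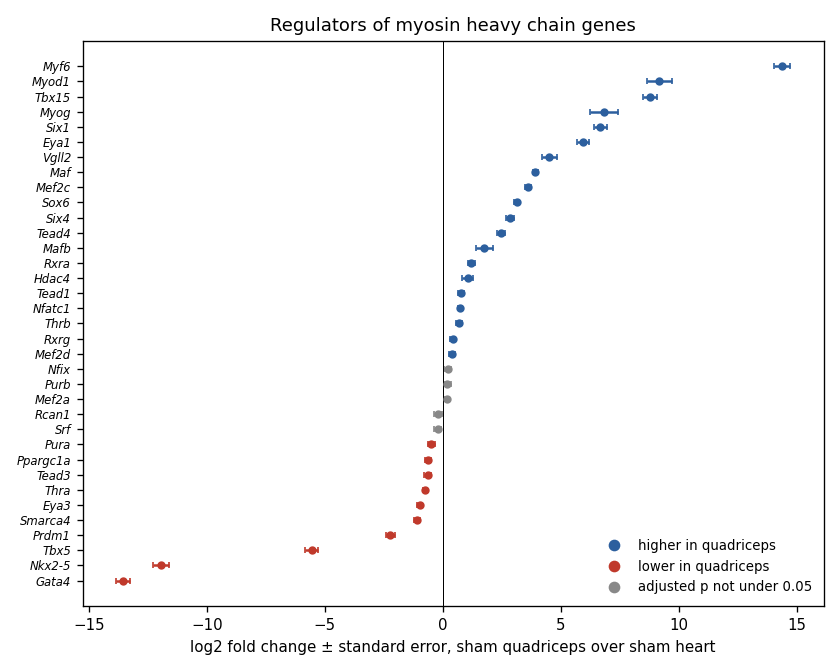
Log2 fold change, sham quadriceps over sham heart, of the 35 regulators, with bars for the standard error and colour for the call (blue higher in quadriceps, red lower, grey not called). Myf6 stands at the top with 14.38 and Gata4 at the bottom with -13.56, and genes near 0 change their call when library totals replace TMM.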

How the data were processed

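RNA sequencing libraries of 3 sham heart and 3 sham quadriceps samples were used. The authors purified mRNA from 100 ng of total RNA, sequenced single-end reads over 50 cycles, and deposited raw counts for each RefSeq transcript. Trim Galore, STAR and mm10 are named in the submitters' processing notes for trimming, alignment and genome build. The protocol in the labels names only quadriceps as the source of RNA, also for the heart samples. RPKM values, the counts scaled by transcript length and library total, were deposited beside them. The near-equal counts of the 2 Myh6 rows show that reads shared by transcripts of a gene were counted on each, so totals include repeats. The authors' own fold changes and p-values were not used, and 9 columns of single libraries in the other table were left out.

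The test took transcripts with over 5 counts in 2 or more libraries and used edgeR 4.0.16 (R 4.3.3, TMM, quasi-likelihood, Benjamini-Hochberg). Alternatives were DESeq2 1.42.0, limma 3.58.1 on log2(RPKM + 0.5), with 0.1 or 1 as other pseudocounts, other scalings and filters, a replicate block and leaving out each library. Fold changes from limma are on the log2(RPKM + pseudocount) scale, which understates changes of low genes. Shares of RPKM were compared with exact permutation tests. The procedure was tested on simulated data. The counts of every replicate pair differed beyond sampling noise. Chi-square over degrees of freedom was 7.10 to 10.3 in heart pairs and 31.9 to 55.8 in quadriceps pairs. The edgeR test used a dispersion per transcript common to the tissues.

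The members and gene lists were chosen with earlier results of these data known. Named were the 8 members, the 2 nearest genes of each and, per list, up to 4 called genes with the largest change, those not tested and those not called. Pax7, Myf5, Dcn, Mef2d and Rxrg were named after their values were seen. Distances used log2 CPM with a prior count of 2. A fold against a group at 0 used a floor of 3 counts per library. Promoter and microRNA sequences matched by symbol for all 8 genes and the 3 hosted microRNAs. The RefSeq and GENCODE starts of Myh1, Myh4, Myh6 and Myh7b differ.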

Additional observations from a re-analysis of the deposited data

How the results depend on the processing

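Each of the 8 genes kept its direction and an adjusted p under 0.05 in every setting that tested it, 16 for Myh6 and Myh8 and 17 for each of the others. Myh8 was removed when at least 10 counts were asked of every library, and with 1 row per gene name the other row stood for Myh6. The largest adjusted p was 0.000851, for Myh3. With limma on log2(RPKM + 0.5) or log2(RPKM + 1), 3 rather than 5 of the 8 genes were higher by over 2 on the log2 scale, and the lowest Myh3 difference was 0.46. These settings change both the pseudocount and the scaling, and library totals alone gave 4.

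Counts over all transcripts moved more, from 7828 higher and 8354 lower, of which 1698 and 2071 by over 2 on the log2 scale. Library totals gave 3241 higher and 15203 lower (1131 and 4166 by over 2), shifted the median log2 fold change by -0.75 and made 17.6% of the calls higher in place of 48.4%. One row per gene name gave 4744 and 5059 (1058 and 1336), since fewer transcripts were tested. Limma gave 3201 and 15319 with a pseudocount of 0.5, 3194 and 15322 with 1, and 3218 and 15365 with 0.1. By over 2 these were 552 and 1344, 419 and 902, and, for higher with 0.1, 801. At least 10 counts in every library left 861 and 839 by over 2. Leaving out 1 library gave 6987 to 8146 higher and 7409 to 8357 lower.

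Same-numbered libraries of the 2 tissues deviated with correlations of 0.0545, -0.0528 and 0.0352, so the data gave no sign of pairing by number, and whether they share mice remains not given. With a replicate block, 7541 transcripts were higher and 8175 lower, and all 8 genes kept their call. A count of 3 libraries per tissue and low counts (23 Myh8 counts over the heart libraries) limit the precision of the minor chains. The share of RPKM per unshared stretch was added after the data were seen. The list counts include genes near 0: leaving out 1 library moved the regulators to 19 to 21 higher and 10 to 11 lower, and the thick filament partners to 9 to 11 higher and 3 to 6 lower, and Mef2d and Rxrg turned from higher to lower with library totals.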
